A study of Mus musculus with 6 samples.

Results

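The regions described here are the H3K27me3 peaks called in fibroblasts rescued with EED R302S that share no base with an EZH2 peak called in fibroblasts rescued with wild-type EED. They number 278, beside 948 H3K27me3 peaks of the same list that overlap at least 1 of the 3449 EZH2 peaks, and so make up 22.7% of that list (95% Wilson interval 20.4% to 25.1%). This overlap is what chose them, so the count and every distance to EZH2 below describe the choice and support nothing by themselves. The series used mouse embryonic fibroblasts from a single EED-knockout clone, made from floxed cells with a Cre lentivirus. A second lentivirus gave these cells back EED in its wild-type form, as R302S or as Y365A, and each form has an EZH2 and an H3K27me3 library. The 2 lists used here, EZH2 with wild-type EED and H3K27me3 with R302S, come from 1 library each, so antibody and EED form changed together and no test between conditions was possible. The other 4 samples were not analysed here.

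EZH2 is the catalytic subunit of Polycomb repressive complex 2, which trimethylates lysine 27 of histone H3 and so marks silenced developmental genes in fibroblasts and other cells. Its partner EED binds the finished mark, which stimulates the enzyme and lets methylation spread from the sites where the complex is first held. An H3K27me3 peak with no EZH2 peak is therefore a place where the mark was called but the enzyme, in the other line, was not. The submitters gave every peak of the H3K27me3 list a name that calls it residual.

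The lists give positions only, so read depth and the height of each peak are unknown, and a site under the calling threshold cannot be told from an empty one. Positions are in mm9, counted from 1, and peaks are built from bins of 200 bp. The smallest H3K27me3 peak was 400 bp and the smallest EZH2 peak 800 bp, and neighbouring peaks were at least 1200 bp and 2200 bp apart. No mm9 sequence or annotation was used here, so genes, repeats and base composition at these places are not described. Whether the chromosome starts, the clusters of chromosomes 5 and 8, the random or unplaced sequences or single peaks elsewhere are multi-copy or high-signal regions, where reads can pile up in any library, was not tested, and peaks there are described as called. Ranges below are over peaks of 1 library, and Wilson intervals cover counting error only, with neighbouring peaks not independent.

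The 278 peaks were divided by position and crowding into 4 sets that were fixed beforehand. On sequences that the assembly keeps as random or unplaced lay 19 of them (6.83%, interval 4.42% to 10.4%). In the first 3.2 Mb of a chromosome started 13 (4.68%, 2.75% to 7.84%). In fixed windows of 100 kb that held 5 or more H3K27me3 peaks lay 61 (21.9%, 17.5% to 27.2%), and the remaining 185 (66.5%, 60.8% to 71.8%) lay elsewhere. Over the whole H3K27me3 list 1.06% of peaks started in the first 3.2 Mb of a chromosome, and 5.71% lay in windows with 5 or more. None of the 948 overlapping peaks was on a random or unplaced sequence or in the first 3.2 Mb, and 9 lay in the dense windows. Because the EZH2 list had no peak on random or unplaced sequences, an H3K27me3 peak there could not have overlapped one.

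By length the order was different. The 278 peaks covered 624.2 kb, which is 10.6% of the length of the H3K27me3 list. The remaining set held 304.4 kb (48.8% of the 624.2 kb), the dense windows 160.8 kb (25.8%), the chromosome starts 117.2 kb (18.8%) and the random or unplaced sequences 41.8 kb (6.70%). A single peak of 74.4 kb made up 63.5% of the length at chromosome starts. When H3K27me3 peaks with gaps of up to 10 kb were taken as 1 place, the 278 peaks occupied 202 places, 168 of which held peaks of the remaining set.

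Median widths differed between the sets as well. The median was 600 bp on random or unplaced sequences (quartiles 400 and 2200, range 400 to 11000 bp) and 800 bp in the remaining set (quartiles 400 and 2000, range 400 to 10000 bp). It was 1600 bp both at chromosome starts (quartiles 600 and 7000, range 400 to 74400 bp) and in dense windows (quartiles 800 and 3800, range 400 to 10400 bp). The 4 ranges overlapped. In the order given, 95% rank intervals of the medians were 400 to 1000, 600 to 800, 600 to 7000 and 1200 to 2400 bp. The interval of the dense windows lay above those of the remaining set and of the random or unplaced sequences. It takes neighbouring peaks as independent, however. Of the 61 dense-window peaks, 41 came from a cluster on chromosome 5 (median 1800 bp) and 18 from one on chromosome 8 (1000 bp). Among peaks of 800 bp or wider, the median was 4300 bp on random or unplaced sequences and 2400 bp in dense windows. The 948 overlapping peaks had a median of 4000 bp (quartiles 2200 and 7200 bp). Among all H3K27me3 peaks 17.9% were 800 bp or narrower, whereas 140 of the 278 were (50.4%, interval 44.5% to 56.2%), 106 of them in the remaining set (57.3% of it, 50.1% to 64.2%). Width and the chance of meeting an EZH2 peak are not independent, and how much of this difference the choice itself makes was not tested.

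**Figure D1:**
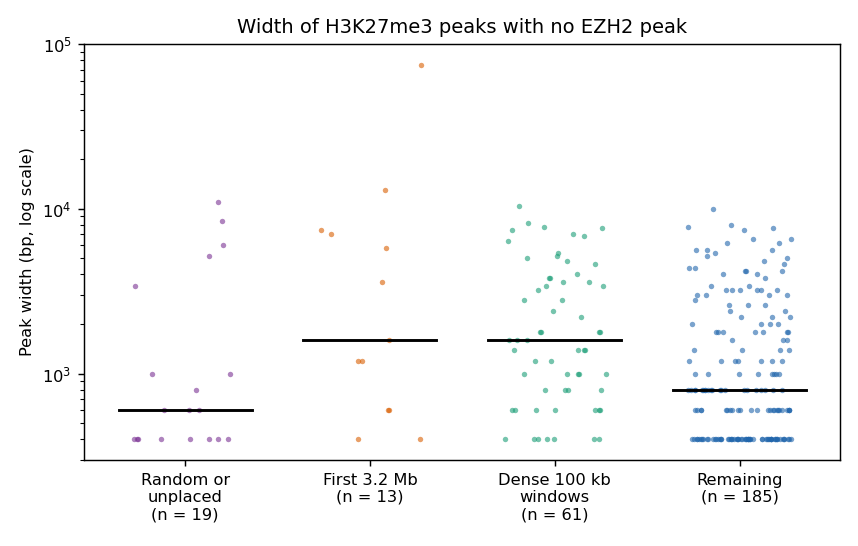
Width of each H3K27me3 peak without an EZH2 peak (vertical axis, bp, log scale) in the 4 sets, with 1 point per peak and a black line at the median. The lines sit at 600, 1600, 1600 and 800 bp from left to right, and the point at 74400 bp is the wide peak near the start of chromosome 11.

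Seen by width, the share of H3K27me3 peaks without EZH2 was highest in the narrowest class and lowest in the widest. It was 66.7% at 400 bp (117 peaks, interval 57.7% to 74.6%) and 60.2% at 600 and 800 bp (103 peaks, 50.5% to 69.1%). Between 1000 and 2000 bp it was 29.0% (193 peaks), between 2200 and 4000 bp 12.8% (297 peaks) and between 4200 and 8000 bp 11.7% (315 peaks). Of the 201 wider peaks, 7 had no EZH2 peak (3.48%, 1.70% to 7.01%). The intervals of neighbouring classes overlapped between 400 bp and 600 to 800 bp, and between 2200 to 4000 bp and 4200 to 8000 bp. A wider peak has more bases that can meet an EZH2 peak, so the choice itself favours this order. How much of it the choice makes was not tested.

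The random or unplaced sequences carried 19 peaks, on 4 sequences. Random sequence of a chromosome is sequence that the assembly assigns to that chromosome without a position, and unplaced sequence has no chromosome. The random sequence of chromosome 8 held 8 peaks within 452.4 kb, and the sequence with no chromosome held 9 within 2578.4 kb. The random sequences of chromosomes 1 and 9 held 1 peak each, of 600 bp (272401 to 273000) and 1000 bp (242401 to 243400).

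The 8 peaks of chromosome 8 random sequence were spaced more closely than the 9 with no chromosome. Their nearest neighbours were a median of 14.5 kb away (range 11.2 to 112.6 kb), against 122.0 kb (12.2 to 731.2 kb). Both had a median width of 600 bp, and 4 peaks of each were 400 bp wide. No peak of this set had a neighbour within 10 kb. The widest on chromosome 8 random sequence spanned 11.0 kb (674601 to 685600), followed by 5.2 kb (816601 to 821800) and 3.4 kb (558601 to 562000). The widest on sequence with no chromosome spanned 8.4 kb (3754601 to 3763000) and 6.0 kb (5727401 to 5733400). Spacing there cannot be read as distance on a chromosome, because such sequences join pieces whose order the assembly does not know.

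The 13 peaks at chromosome starts lay on 8 chromosomes, 7 of them on chromosomes 9 and 11. Mouse chromosomes carry their centromere at one end, and the assembly writes that end as a placeholder without sequence. Apart from 1 peak of 400 bp on Y (2652001 to 2652400), all of them started between 2999801 and 3150601. The first H3K27me3 peak beyond the limit of 3.2 Mb started at 3350201 on chromosome 16, was 400 bp wide and had no EZH2 peak either. The next, at 3644201 on chromosome 11, overlapped EZH2 by 400 bp.

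On chromosome 9, 5 peaks followed each other over 38.4 kb and covered 82.3% of it. They measured 7.4 kb (2999801 to 3007200), 7.0 kb (3009401 to 3016400), 0.6 kb (3018201 to 3018800), 13.0 kb (3020001 to 3033000) and 3.6 kb (3034601 to 3038200). The gaps between them were 1200 to 2200 bp, close to the smallest gap in the list. Their nearest EZH2 peak lay 493.4 to 524.4 kb farther along the chromosome.

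On chromosome 11, the first H3K27me3 call, of 1.2 kb (3001201 to 3002400), was followed after 23.4 kb by the widest H3K27me3 peak of the list, 74.4 kb (3025801 to 3100200). Between them lay 2 EZH2 peaks, at 3014601 to 3015600 and at 3021001 to 3022600. The wide peak began 3.2 kb beyond the second and the narrow one ended 12.2 kb before the first, so EZH2 and H3K27me3 were called side by side here without meeting. These were 2 of the 3 EZH2 peaks that start in the first 3.2 Mb of a chromosome.

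The other 6 starts held 1 peak each. The widest was 5.8 kb on chromosome 17 (3077201 to 3083000), 1543.0 kb from EZH2, and the peaks on chromosomes 6, 12, 16, 18 and Y measured 400 to 1600 bp. For the 12 peaks on chromosomes with an EZH2 peak, the median distance to it was 514.0 kb (quartiles 497.3 and 1081.2, range 3.2 to 2029.6 kb), and 9 of the 12 lay within 1 Mb. None of the 8 distinct EZH2 peaks nearest to them overlapped an H3K27me3 peak. A count of 0 of 8 allows a share of up to 32.4% by the Wilson interval, which includes the 27.7% of all EZH2 peaks that did.

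**Figure D2:**
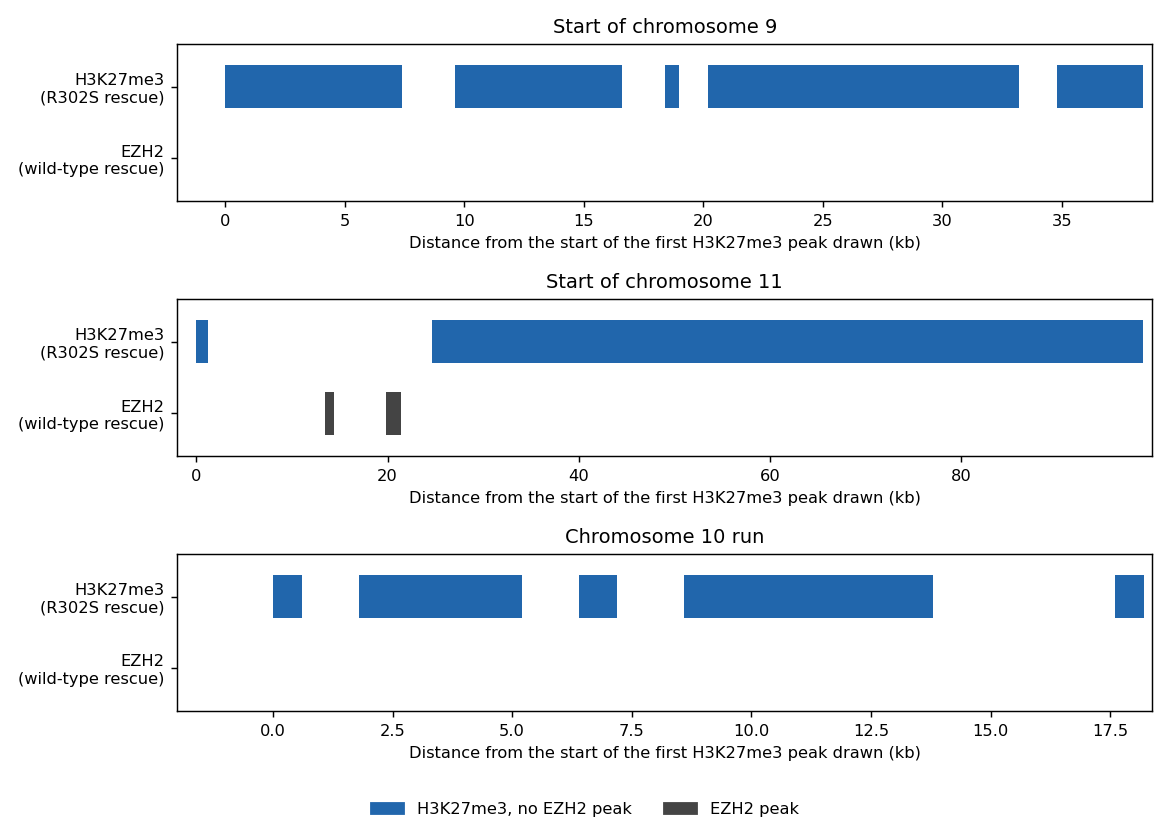
Called peaks at the starts of chromosomes 9 and 11 and in a run on chromosome 10, drawn to scale as bars (horizontal axis, distance in kb from the start of the first H3K27me3 peak drawn; upper row H3K27me3 in the R302S rescue, lower row EZH2 in the wild-type rescue). The 74.4 kb peak of chromosome 11 begins just past 2 EZH2 peaks, and no EZH2 peak was called within the other 2 stretches.

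The dense windows were 7 in number, and 2 clusters supplied nearly all of their peaks without EZH2. Of the 61 peaks, 41 lay in 3 adjoining windows of chromosome 5 and 18 in 2 windows of chromosome 8. The other 2 windows, on chromosome 1 (74900001 to 75000000) and chromosome 8 (126100001 to 126200000), each held 4 overlapping peaks and 1 peak without EZH2. The latter were 1.6 kb (74914601 to 74916200) and 0.4 kb (126136601 to 126137000) wide, beside 6 and 2 EZH2 peaks in their windows.

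On chromosome 5 the 3 windows held 17 of 17, 8 of 8 and 16 of 17 peaks without EZH2. The widest peak of each was 7.8 kb (14949801 to 14957600), 10.4 kb (15034801 to 15045200) and 7.6 kb (15194801 to 15202400). Their widths summed to 54.6 kb in the first window, 33.0 kb in the second and 42.0 kb in the third. Median gaps between peaks were 2300, 2200 and 2200 bp, whereas the median distance from one start to the next was 5100, 9400 and 4400 bp, longest in the second window.

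The cluster ran past the third window. With the 4 peaks that follow in the next window and count among the remaining set, it held 45 peaks without EZH2 and 1 with it over 321.6 kb, from 14900001 to 15221600. These 45 covered 43.7% of the stretch. An interval without peaks, from 15062401 to 15112600, divided it into a run of 25 peaks over 162.4 kb and a run of 21 over 109.0 kb. The median width was 2800 bp in the first run and 1800 bp in the second, and the median gap 2300 and 2200 bp. The only EZH2 peak of the stretch was 1.8 kb wide and sat in the second run, under an H3K27me3 peak of 1.6 kb (15143001 to 15144600). The H3K27me3 peaks next to that EZH2 peak lay 2.6 kb before it (15140001 to 15140400) and 2.4 kb after it (15147201 to 15154200).

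On chromosome 8 the windows from 19700001 and from 19900001 held 7 and 11 peaks, all without EZH2. Their widest peaks were 2.2 kb (19772401 to 19774600) and 5.4 kb (19917401 to 19922800). The window between them held 4 more and the window after them another 4, which count among the remaining set, so that 26 peaks without EZH2 spread over 333.0 kb. They covered 15.6% of it, against 43.7% on chromosome 5. They came in short groups of 3 to 8 peaks, and the stretch included 2 EZH2 peaks, neither of which met H3K27me3. The dense-window peaks here had a median width of 1000 bp, against 1800 bp on chromosome 5.

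**Figure D3:**
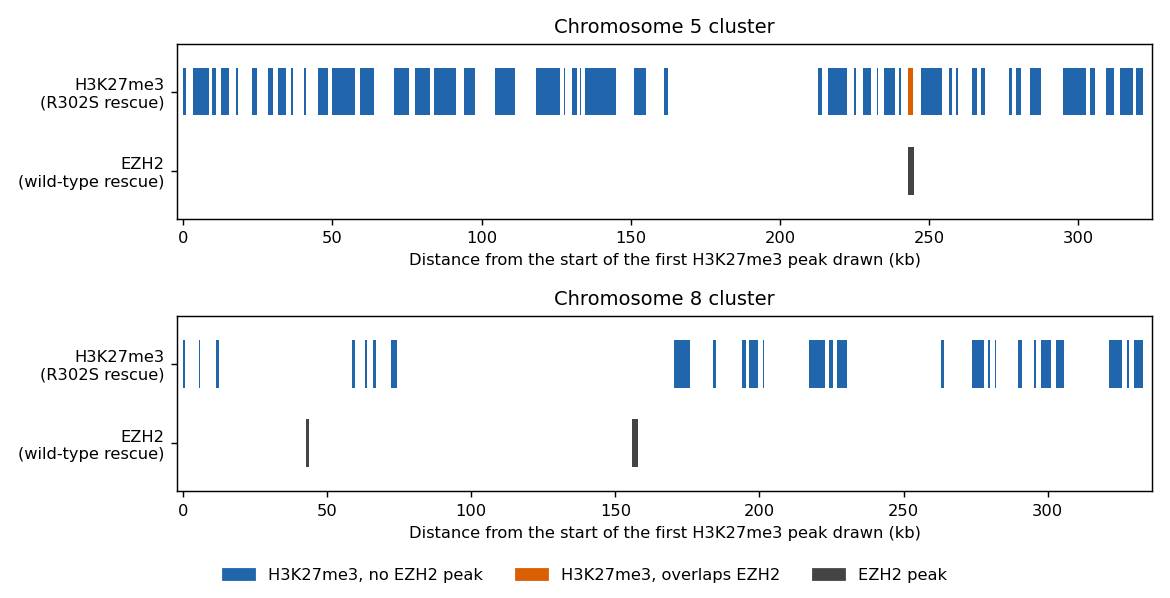
Called peaks of the clusters on chromosomes 5 and 8, drawn to scale as bars (horizontal axis, distance in kb from the start of the first H3K27me3 peak drawn; upper row H3K27me3 in the R302S rescue, lower row EZH2 in the wild-type rescue). Of 46 H3K27me3 peaks on chromosome 5, 1 meets an EZH2 peak, and of 26 on chromosome 8 none does.

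Of the peaks without EZH2 in windows crowded with H3K27me3 peaks, most lay in these 2 clusters, 45 and 26 of them. In the 13 chromosomal windows with 4 or more H3K27me3 peaks, 85 of 94 peaks had no EZH2 peak (90.4%). With 5 or more it was 61 of 70 (87.1%), but 1 of 5 in each of the windows on chromosome 1 and from 126100001 on chromosome 8. These shares count neighbouring peaks of the same clusters, so they do not describe crowded windows in general. In windows with 3 peaks the number was 3 of 30 (10.0%), in windows with 2 it was 26 of 142 (18.3%) and in windows with 1 it was 145 of 941 (15.4%). The 6 windows with exactly 4 peaks, just under the limit, held 24 peaks and none overlapped EZH2. Of these windows, 1 was on chromosome 5 and 2 on chromosome 8 beside the clusters, 1 was the start of chromosome 9, and the others lay on chromosome 7 (67000001 to 67100000) and chromosome 10 (57600001 to 57700000).

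The window on chromosome 10 belonged to a run of 5 peaks over 18.2 kb (57684201 to 57702400), which the edge of the grid divides. Its peaks of 600 to 5200 bp covered 58.2% of the run with a median gap of 1300 bp, closer together than in the 2 runs of chromosome 5. The nearest EZH2 peak was 572.6 to 590.2 kb away. The window on chromosome 7 held 4 peaks of 400 to 1400 bp that covered 2.6 kb, with gaps of 2600 to 20000 bp and EZH2 2481.6 to 2517.0 kb away.

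The remaining 185 peaks were spread over all 20 chromosomes that carry EZH2 peaks, with 5 to 19 on each (median 8.5). They made up 32.0% of the H3K27me3 peaks outside the other sets on chromosome 16 (8 of 25) and 30.4% on X (7 of 23). On chromosome 15 they made up 9.62% (5 of 52). These were the 2 highest shares and the lowest one of 20 chromosomes, and rest on few peaks. The Wilson intervals of X (15.6% to 50.9%) and chromosome 15 (4.18% to 20.6%) overlapped. For chromosome 16 the interval was 19.4% to 53.8% over all its peaks (9 of 26). Whether chromosomes differed was not tested. In all, the 185 stood beside 948 overlapping peaks, 9 of which lay in dense windows and are left out of these chromosome shares. Of the 185, 8 started before 10 Mb, as did 24 of the 948 overlapping peaks. Before the first EZH2 peak of their chromosome lay 4 of them, and 6 lay after the last one. The first H3K27me3 peak was one without EZH2, from any set, on 12 of the 20 chromosomes, and the last one was on 5. In the whole list 22.7% of peaks had no EZH2 peak. All 13 peaks in the first 3.2 Mb were without EZH2, where only 3 EZH2 peaks started. They lay on 8 chromosomes, of which Y carries no EZH2 peak and so is not among the 20. On these 8 chromosomes that set alone makes the first peak one without EZH2.

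**Figure D4:**
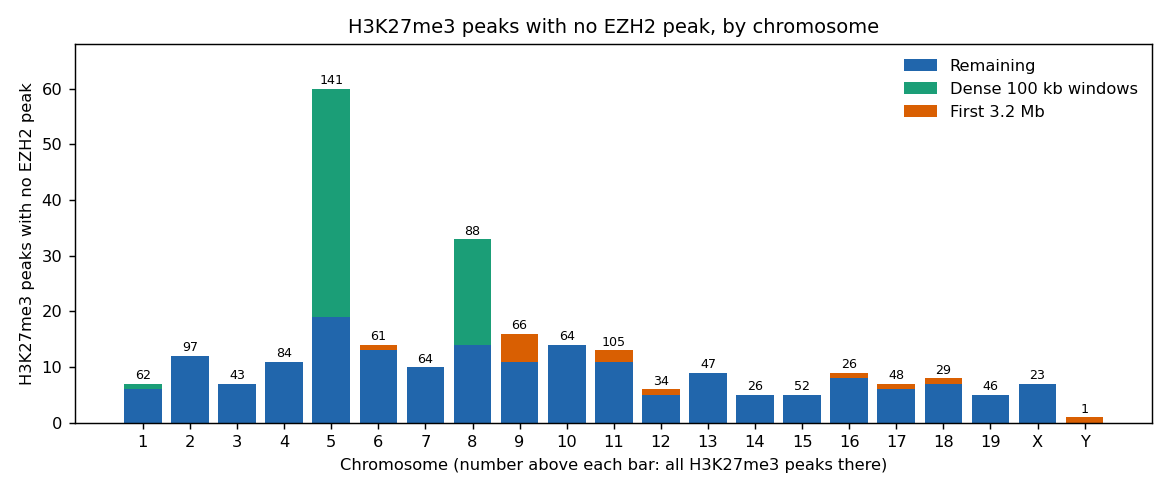
Number of H3K27me3 peaks without an EZH2 peak on each chromosome (vertical axis), stacked by set, with the total number of H3K27me3 peaks printed above each bar. Chromosomes 5 and 8 stand out through their dense windows (41 and 19 peaks), while the remaining set gives 5 to 19 peaks on every chromosome but Y.

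Most of the 185 were solitary. With no other H3K27me3 peak within 10 kb stood 149, and their median width was 800 bp (quartiles 400 and 2000 bp), with 52 of them at the smallest width of 400 bp. Of the other 36, 14 belonged to runs of 5 or more peaks that the grid of windows divides, and 22 to groups of 2 to 4. In 9 of those 22 cases the group included an overlapping peak, as on chromosome 10, where a peak of 1.0 kb (79941201 to 79942200) stood 1.8 kb from one of 24.4 kb. Over all 185 the nearest H3K27me3 peak lay a median of 386.6 kb away (quartiles 29.8 and 1696.2, range 1.2 to 13509 kb), against 315.4 kb for overlapping peaks (75.9 and 903.8 kb), with rank intervals of the medians that overlapped (304.6 to 632.8 and 261.4 to 356.4 kb). In the dense windows it lay 1.8 kb away (1.4 and 2.8 kb), but these were chosen for crowded peaks, so short distances follow from the choice. On random or unplaced sequences the median was 25.2 kb (13.8 and 122.0 kb). At chromosome starts the median was 23.4 kb (1.75 and 2719.5 kb), which is the distance between the 2 peaks of chromosome 11. The nearest H3K27me3 peak was itself without EZH2 for 55 of the 185 (29.7%, interval 23.6% to 36.7%), for 58 of the 61 in dense windows and for 119 of the 948 overlapping peaks (12.6%, 10.6% to 14.8%).

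Distance to EZH2 in the remaining set ran from 0 to 9372.2 kb, with a median of 287.0 kb (quartiles 65.6 and 1249.4 kb). Within 5 kb lay 12 peaks (6.49%), from there to 50 kb 28, from there to 1 Mb 92, and farther than 1 Mb 53 (28.6%, interval 22.6% to 35.5%). For scale, for an overlapping peak the closest EZH2 peak that it did not meet stood 94.7 kb off at the median (quartiles 17.0 and 401.2 kb). Within 1 Mb on either side the 185 had a median of 2 EZH2 peaks (quartiles 0 and 6), and the overlapping peaks had 5 further ones (2 and 11). The quartile ranges overlapped in both measures. In dense windows the median distance to EZH2 was 88.0 kb (22.6 and 151.6 kb), but these 61 peaks share 5 nearest EZH2 peaks.

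**Figure D5:**
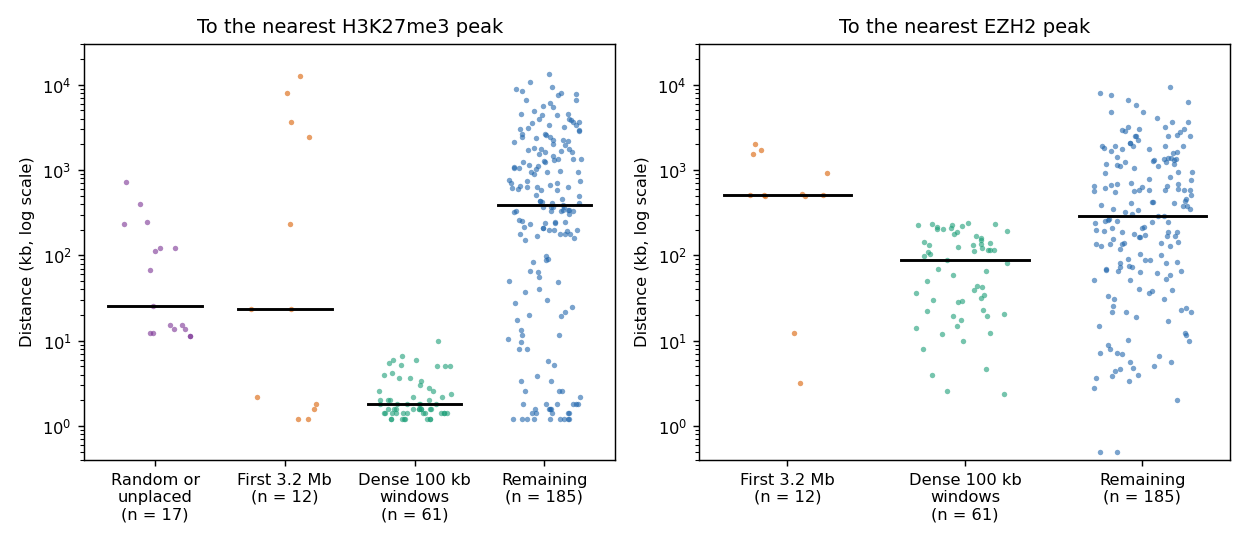
Distance of each H3K27me3 peak without EZH2 to the nearest H3K27me3 peak (left) and to the nearest EZH2 peak (right; vertical axes in kb, log scale), with 1 point per peak and a black line at the median; the 2 peaks that abut an EZH2 peak are drawn at the bottom of the right panel. In dense windows the points lie between 1.2 and 9.8 kb on the left, and the remaining set spans 1.2 to 13509 kb. Dense windows were chosen for crowded H3K27me3 peaks, so short distances there follow from the choice.

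Not every peak chosen was away from EZH2. Of the 258 on chromosomes with an EZH2 peak, 17 lay within 5 kb of one. Of the 17, 11 were 1000 bp or narrower, as were at least 50.4% of all 278, the share at 800 bp or narrower. Whether the 17 differed in width was not tested. At the limit of the choice were 2 peaks of 400 bp that abut an EZH2 peak with no base between them, on chromosome 4 (126903801 to 126904200, after an EZH2 peak of 2.0 kb) and on chromosome 11 (96039601 to 96040000, after one of 7.4 kb). Next came 1.6 kb on chromosome 4 (44725601 to 44727200) at 2.0 kb, 1.0 kb on chromosome 15 (101675801 to 101676800) at 2.8 kb and 3.2 kb on chromosome 17 (71946201 to 71949400) at 3.4 kb, leaving aside the chromosome starts and dense windows. On the other side of the limit, 2 overlapping peaks shared 200 bp with EZH2, 42 shared 400 bp and 84 had under 50% of their length inside EZH2 peaks. For 10 of the 17 the nearest EZH2 peak overlapped another H3K27me3 peak, and for 7, the 2 abutting ones among them, it overlapped none. Some of the 17 share an EZH2 peak. The EZH2 peaks within 5 kb were 15 distinct ones, of which 8 overlapped H3K27me3 (53.3%, interval 30.1% to 75.2%). Among all EZH2 peaks 27.7% did, and whether the shares differ was not tested.

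Over the remaining set, the nearest EZH2 peaks were 157 distinct ones, of which 64 overlapped an H3K27me3 peak (40.8%, interval 33.4% to 48.6%). Among all 3449 EZH2 peaks 957 did (27.7%, 26.3% to 29.3%). The 157 are part of the 3449 and were picked by their position, so the 2 intervals cannot be set against each other as a test. Whether the shares differ was not tested.

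The 10 widest of the 185 measured 5.6 to 10.0 kb, with 3 peaks tied at 5.6 kb for the last place. The tie went by chromosome order to one on chromosome 5, and the others were 53987201 to 53992800 on chromosome 6, at 386.0 kb from EZH2, and 19870401 to 19876000 in the cluster of chromosome 8, at 12.2 kb from EZH2 and 8.0 kb from H3K27me3. The 10 so taken had no H3K27me3 neighbour within 10 kb and no EZH2 peak closer than 21.4 kb. The widest, 10.0 kb on chromosome 8 (56199201 to 56209200), was 6268.8 kb from EZH2 and 6557.0 kb from any H3K27me3 peak. At 21.4 kb stood 7.6 kb of chromosome 5 (148081401 to 148089000), and next came one of 7.8 kb on chromosome 10 (7229401 to 7237200) at 72.4 kb.

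A second group of the widest lay 176.6 to 547.0 kb from EZH2. It comprised 8.0 kb of chromosome 6 from 30121201 to 30129200, 7.4 kb of chromosome 2 from 104961801 to 104969200, 6.6 kb of chromosome 8 from 12167401 to 12174000 and 5.6 kb of chromosome 5 from 67996801 to 68002400. The others stood 2575.2 to 3609.6 kb from it, with 6.6 kb of chromosome 5 from 81447001 to 81453600, 6.2 kb of chromosome 6 from 145810001 to 145816200 and 6.2 kb of chromosome 17 from 39979801 to 39986000. For 5 of the 10 the nearest EZH2 peak overlapped H3K27me3, and for 5 it did not; of the tied peaks left out it did for the one on chromosome 6 and did not for the one on chromosome 8.

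The peaks farthest from EZH2 were of mixed width. The 5 farthest lay on chromosome 14 (9119001 to 9119400, 9372.2 kb away, and 112074401 to 112076600, 6552.4 kb), X (109484201 to 109485000, 8086.2 kb, and 166649801 to 166650400, 7568.0 kb) and chromosome 8 (the peak of 10.0 kb). The first 4 were 400, 2200, 800 and 600 bp wide, in a set where 57.3% of peaks were 800 bp or narrower. Across the remaining set, width and distance did not run together in one direction. The median distance was 418.0 kb for the 61 peaks of 400 bp, 320.2 kb for 45 of 600 to 800 bp, 189.2 kb for 33 of 1000 to 2000 bp, 123.2 kb for 24 of 2200 to 4000 bp and 466.5 kb for the 22 that were wider. The quartiles of all 5 classes overlapped, from 84.4 to 1402.8 kb for the narrowest and from 136.7 to 1532.1 kb for the widest.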

How the data were processed

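Chromatin of the rescued fibroblasts was fixed with formaldehyde, digested to mononucleosomes with micrococcal nuclease and immunoprecipitated, per the labels' protocols. The submitters' processing notes name the build mm9 with Bowtie 1.0.0 and deepTools; how and at what threshold peaks were called, against which control, and whether libraries were pooled is not given in the sources used here. The deposited lists hold starts and ends of peaks and no score, so depth is unknown. In both, starts are multiples of 200 bp and ends fall 1 bp short of one, so 1 was added to the ends.

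Peaks sharing at least 1 bp were called overlapping (numpy 2.4.6, pandas 2.3.3, Python 3.11.15; bedtools 2.31.1 gave the same 278). The sets were assigned in the order given, windows by the peak's start on a grid from position 1. Distances run edge to edge. Intervals of shares are Wilson and those of medians binomial rank intervals (95%, scipy 1.17.1). The assignment was tested on simulated peaks. Figures were drawn with matplotlib 3.10.9.

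The members and sets were chosen with earlier results of these data known. Regions named are the 5 widest at chromosome starts and on random or unplaced sequences, each dense window with its widest member, the 10 widest, 5 nearest to and 5 farthest from EZH2 of the remaining set, and peaks next to each limit; the runs on chromosomes 5, 7, 8, 9 and 10 and the other narrow peaks given were picked after their values were seen.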

Additional observations from a re-analysis of the deposited data

How the results depend on the processing

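Of 90 values recomputed, 74 stayed within 1.5 times the count or inside the interval of the median. Some of the 74 could not change, such as the count of 19 on random or unplaced sequences, which no setting touched. The number 74 is therefore no measure of stability. The number of peaks without EZH2 (278) became 438 against the wider 50% of the EZH2 list and 56 among the wider 50% of the H3K27me3 list; it was 261 with no EZH2 peak allowed within 5 kb, 210 within 50 kb, 206 with H3K27me3 peaks within 5 kb joined and 362 with 50% of the peak required inside EZH2. Chromosome starts held 21 peaks in the first 10 Mb. Counting only peaks of 800 bp or wider, the median width was 2100 bp over all, 4300 bp on random or unplaced sequences and 1900 bp in the remaining set, and the median distance to the nearest H3K27me3 peak was 2.2 kb in dense windows and 656.2 kb in the remaining set. Joining peaks within 5 kb gave a median width of 8400 bp in dense windows and a median distance to EZH2 of 242.2 kb over all. Counting other peaks without EZH2 as the only neighbours, the median distance was 944.4 kb over all and 3707.8 kb in the remaining set. Against the wider 50% of the EZH2 list, the median distance to EZH2 was 631.2 kb over all, 10188.6 kb at chromosome starts, 475.6 kb in dense windows and 714.6 kb in the remaining set. Dense windows held 59 to 81 peaks over the other window limits, and 64 when runs of 5 or more peaks with gaps up to 10 kb replaced the grid, an alternative chosen after seeing the data. No paired analysis was possible because the lists come from single libraries, which also leaves no replicate to omit. Since depth is unknown, sites below a calling threshold were beyond reach.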
